A study of Mus musculus and Homo sapiens with 7 samples.

Results

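The 40 guides described here target the 4 genes of the screen whose names begin with Zfp and a digit: Zfp316, Zfp846, Zfp865 and Zfp931. They were taken by gene name from a library of 10021 guides, with 10 guides for each Zfp gene. Of these guides, 9231 targeted 925 other genes. The rest were 375 non-targeting guides without a matching site and 375 safe-targeting ones whose sites lie outside genes. The screen used B16-F10, a mouse melanoma line, made to express Cas9 with a fluorescent protein by lentivirus and sorted for fluorescence. Cells that had taken up a guide were enriched over 7 days in 2 µg/mL puromycin and then kept for 48 h in glucose or galactose medium. Guides were amplified from 5 µg of genomic DNA of living cells in glucose medium (2 libraries) and of dead cells in galactose medium (3 libraries). The groups thus differ in medium and in cell state at once, and effects of the 2 cannot be told apart. The series as a whole addressed EOLA1, a protein its title places in mitochondria, and none of the 4 Zfp genes is named in it.

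Zfp genes encode zinc finger proteins, in most of which a pair of cysteines and a pair of histidines hold a zinc ion and successive fingers read DNA. Many also carry a KRAB domain, which recruits the co-repressor Trim28 and, through it, the histone methyltransferase Setdb1, so that bound genes and mobile elements are silenced. The family grew by local duplication, and its members often lie side by side. Cells fed galactose make little ATP by glycolysis and rely on respiration in mitochondria. Where a gene is needed for survival in galactose, its guides would be over-represented among the dead cells.

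The living libraries, called a and b by their place in the deposited table, held 6801049 and 8492138 reads, and the dead libraries a, b and c held 14722843, 13275778 and 15591454, as recovered from the rounded values. In the living libraries 1 read equalled 1.57 and 1.25 normalised counts, and in the dead ones 0.761, 0.863 and 0.774. The labels do not say whether separate cultures were used. The p-values therefore reflect the spread among these libraries alone, and that spread may be technical.

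Guides against 3 of the 4 genes had higher mean log counts in the dead galactose libraries than in the living ones. Those against Zfp846 had a lower mean log count, a direction that turned when the counts of its guides were summed (0.0858). By the mean over guides of log2(normalised count + 1), Zfp931 stood at 1.26 ± 0.24 in dead minus living cells (SE, 3 against 2 libraries), Zfp865 at 1.05 ± 0.37, Zfp316 at 0.37 ± 0.21 and Zfp846 at −0.64 ± 0.52. No difference passed the test over all 915 genes with at least 3 measured guides (limma, adjusted p = 0.236, 0.398, 0.614 and 0.685 in the same order). This test called 0 genes higher and 0 lower in the whole library, 0% in each direction. Before adjustment, 14 genes higher (1.53%) and 73 lower (7.98%) had a limma p under 0.05. Zfp931 (limma, unadjusted p = 0.00197) and Zfp865 (0.0287) were among the former. Leaving out living library a gave 7 higher and 24 lower genes, and leaving out living library b gave 4 and 26. Leaving out dead library a gave 45 and 108, and leaving out dead library c gave 9 and 111. The counts were 10 and 127 with libraries scaled to equal totals, 22 and 43 with a minimum mean of 50, and 39 and 50 by the median of guides. The Zfp865 value includes a guide that reached the minimum for rare guides through the dead libraries alone, and with no minimum its unadjusted limma p was 0.101. For Zfp931, Zfp865 and Zfp316 no dead library overlapped the living ones, all lying above them, as they did for 76 genes in all (8.31%). With the median of guides in place of the mean, Zfp931 kept this separation, while the groups overlapped for Zfp865 and Zfp316. Over all genes 31.8% had a higher and 68.2% a lower mean in dead cells. The median gene lay at −0.16, and the median of the 4 Zfp genes at 0.71. This median takes in the Zfp865 value, which was 0.47 without the guide that passed through the dead libraries alone.

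Many of the 40 guides gave no measurement. In all, 15 (37.5%, exact 95% interval 22.7 to 54.2) were at 0 in every library, against 22.3% of guides to other genes, 19.2% of non-targeting and 26.9% of safe-targeting guides. The 0s were uneven among the genes, with 6 of 10 guides for Zfp931, 5 for Zfp846, 3 for Zfp865 and 1 for Zfp316. The interval takes the 40 guides as independent draws, though they come in sets of 10 per gene, so it may be too narrow. Among the 919 genes with 10 guides the median was 2 guides at 0, and 33 genes (3.59%) had 6 or more. A further 2 Zfp guides were under the minimum, a mean of 10 normalised counts over the 5 libraries, so 23 guides were measured. They were 3 for Zfp931, 6 for Zfp865, 9 for Zfp316 and 5 for Zfp846.

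Of the 23 measured guides, 17 had a higher mean in dead cells (73.9%), beside 43.7% of all 7248 measured guides, 38.5% of non-targeting and 51.3% of safe-targeting ones. Higher guides were 3 of 3 for Zfp931, 5 of 6 for Zfp865, 7 of 9 for Zfp316 and 2 of 5 for Zfp846. With a minimum mean of 50 the count was 16 of 19. Guides of 1 gene share a target and are not replicates, and the minimum more readily keeps rare guides that are higher in dead cells, as 3 of the 5 libraries are dead ones. The dead libraries were all above the living ones for 6 Zfp guides (15% of all measured guides) and all below them for 2 (17.7%). These 6, the 17 of 23 and the 5 of 6 for Zfp865 include guide 197157 of Zfp865. This guide reached the minimum through the dead libraries alone. Taken singly, 0 of the 23 guides passed (limma, smallest adjusted p = 0.497) and 4 had an unadjusted limma p under 0.05, each of them higher in dead cells, beside 3.63% of all guides higher and 4.24% lower. The same test called 0 guides higher and 2 lower (0.0276%) in the whole library.

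Zfp931 (ENSMUSG00000078861) placed 1 of the 915 genes by mean change, which rested on 3 guides, each counted in every library. It placed 6 by the median of guides and 5 without living library b. With no minimum, or without living library a or dead library a or c, it placed 3. Its value was 7.58 and 7.15 in the living and 8.48, 8.87 and 8.53 in the dead libraries, on the scale of mean log2(normalised count + 1). The dead libraries thus did not overlap the living ones, which differed from each other by 0.43. The fold was 2.40, with a 95% interval from 1.60 to 3.61. The gene was scarce in the library: the normalised counts of its 10 guides summed to 740 ± 165 in living cells (SD, n = 2), placing 915 of 929 genes, and 2695 ± 1099 in dead cells (SD, n = 3).

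Guide 85662, numbered as in the deposited table, carried most Zfp931 counts. Its normalised counts were 339 and 733 in living cells, against 1116, 3339.8 and 2559.6 in dead cells. Every dead value lay above both living values, although living library b had more than living library a and dead library a was the lowest of the dead ones. The change of this guide was 2.09 ± 0.63 (SE, limma adjusted p = 0.603), and its share of the gene's counts was 54.4% and 85.6% in living and 73.0%, 90.0% and 90.0% in dead libraries. Guide 85660 had 140 and 67.4 normalised counts in living cells and 253, 246 and 111 in dead cells, a change of 0.96. Guide 85665 had 144 and 56.2 in living cells and 160, 124 and 175 in dead cells, a change of 0.74. For both of these the groups overlapped, since living library a lay above 1 of the dead libraries. Without guide 85662 the mean of the other two was 0.85. Of the remaining guides, 85661 had 1 read in dead library b and none elsewhere, and 6 were at 0. Among the 18 genes with 3 measured guides, 2 (11.1%) had all of them higher in dead cells.

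Zfp865 (ENSMUSG00000074405) placed 3 of the 915 genes by mean change, and the guides with the highest changes were rare in living cells. Its place was 58 with the median of guides, 25 without dead library c, 22 with no minimum and 13 without living library a. Its living values, 5.90 and 6.18, did not overlap its dead values of 6.44, 7.55 and 7.29. The fold was 2.08, with a 95% interval from 1.11 to 3.87. This fit includes a guide that passed the minimum through the dead libraries alone. With no minimum the groups overlapped (limma, unadjusted p = 0.101). Without dead library c the change was 0.56, and without dead library a it was 1.38.

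The most abundant Zfp865 guide, 197155, had 5211 and 5178 normalised counts in living cells and 6825, 8093 and 9612 in dead cells. It made up between 85.2% and 93.1% of the gene's counts in each library, and the groups did not overlap. Its change was 0.64 ± 0.24 (SE, limma adjusted p = 0.603), less than the gene's mean. Guide 197157 was at 0 in both living libraries and had 1, 36 and 90 reads in the dead ones, or 0.761, 31.1 and 69.7 normalised counts. Against a floor of 3 reads in each living library, its dead mean of 33.8 was at least 8.01-fold higher. Dead library a, with 1 read, lay below that floor. The fold carries no test, since this guide reached the minimum through the dead libraries alone. Without guide 197157 the mean over the other measured Zfp865 guides was 0.47.

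Guide 197152 of Zfp865 had 3.14 and 31.2 normalised counts in living and 206, 47.5 and 16.3 in dead cells, so living library b lay above dead library c. Guide 197160 had 70.6 and 16.2 in living and 110, 86.3 and 51.9 in dead cells, with living library a inside the dead range. Guide 197159 had 486 and 609 in living and 865, 734 and 531 in dead cells, also with overlap. The changes of these guides were 2.27, 1.19 and 0.35. Guide 197161 went the other way, from 59.6 and 81.1 to 0.761, 52.6 and 44.1, with all dead values below both living ones and a change of −2.12. The rare guide 197156, under the minimum, had 8 reads in living library a and 0 in the other libraries. With this guide and no minimum the gene stood at 0.63, and its groups overlapped.

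Zfp316 (ENSMUSG00000046658) was the best covered of the 4 genes, with 9 of 10 guides measured and 20332 ± 264 normalised counts in living cells over all guides (SD, n = 2), placing 73 of 929 genes. By mean change it placed 59 of 915 genes, by the median of guides 154, and with a minimum mean of 50 it placed 21 of 906. Its living values were 9.19 and 9.21 and its dead values 9.78, 9.36 and 9.59. The groups did not overlap, and the living libraries differed by 0.02. The fold was 1.30, with a 95% interval from 0.907 to 1.85. Among the 164 genes with 9 measured guides, 8 (4.88%) had as many as 7 guides higher in dead cells.

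The difference lay mostly in abundant Zfp316 guides. Guide 45478 had 4850 and 4652 normalised counts in living cells and 12438, 17357 and 11061 in dead cells. Every dead value lay above both living values, and the change was 1.49 ± 0.28 (SE, limma adjusted p = 0.497), with an interval of the fold from 1.69 to 4.70. Guide 45482 had 3777 and 3394 in living and 4863, 6116 and 7148 in dead cells, a change of 0.74. Guide 45479, the most abundant in 4 of the 5 libraries, had 9781 and 10072 in living and 13741, 11593 and 14018 in dead cells, a change of 0.40. In these 3 guides the groups did not overlap. Guide 45481 stood at 0.83, from 1130 and 859 to 1088, 1632 and 3022, with living library a above dead library a.

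The less abundant Zfp316 guides overlapped between the groups. Guide 45475 stood at 0.44, guide 45476 at 0.42, guide 45484 at 0.05 and guide 45477 at −0.38. The rarest, 45480, had 14.1 and 12.5 normalised counts in living and 68.5, 0 and 10.8 in dead cells, so its change of −0.61 turned on a dead library with no read. Guide 45483 was at 0 throughout.

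Summing the counts of all guides of a gene gives abundant guides more weight. On log2 of this sum Zfp316 stood at 0.82 ± 0.11, from 14.32 and 14.30 in living to 15.03, 15.22 and 15.14 in dead cells, placing 2 of the 915 genes by p (limma, adjusted p = 0.0529, which it shared with the first). It did not pass the threshold of 0.05. By this measure, added after the data were seen, Zfp931 stood at 1.79 ± 0.35 (adjusted p = 0.183), Zfp865 at 0.63 ± 0.13 (0.204) and Zfp846 at 0.0858 ± 0.23 (0.851). The test again called 0 genes, with an unadjusted limma p under 0.05 for 127 higher genes (13.9%) and 48 lower ones (5.25%). Zfp316, Zfp865 and Zfp931 were among the 263 genes (28.7%) whose dead libraries were all above the living ones by this sum. The median gene stood at 0.0572.

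Zfp846 (ENSMUSG00000058192) had no shared direction among its guides, and by the mean over guides its groups overlapped. Its living values were 7.17 and 6.40 and its dead values 7.10, 5.67 and 5.67, so dead library a lay between the living ones. The fold was 0.643, with a 95% interval from 0.266 to 1.55. Leaving out dead library a gave −1.12, with the remaining dead libraries below the living ones. Leaving out living library a gave −0.26. All dead libraries also lay below the living ones with a minimum mean of 50 (−0.60, limma unadjusted p = 0.0107, adjusted p = 0.652). They did so too by the median of guides (−0.46, limma unadjusted p = 0.0550, adjusted p = 0.512). The groups overlapped with no minimum, with a pseudocount of 10, at equal totals, on summed counts and without dead library b or c. Over all guides its normalised counts summed to 964 ± 71.7 in living cells (SD, n = 2), placing 910 of 929 genes, and 1054 ± 314 in dead cells (SD, n = 3).

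The most abundant Zfp846 guide, 222928, had 521 and 386 normalised counts in living and 1016.5, 638 and 419.8 in dead cells, a change of 0.53. Guide 222931 stood at 0.40, from 65.9 and 177 to 95.9, 255 and 121. In both, the groups overlapped. Guide 222937 had 224 and 228 in living and 114, 7.77 and 176 in dead cells, all below the living ones, and its change of −2.01 leaned on dead library b. Guide 222933 stood at −1.30, from 155 and 121 to 35.8, 127 and 36.4, with dead library b inside the living range. Guide 222930 had 48.6 and 1.25 in living and 117, 0.863 and 0 in dead cells, so each group held both a high and a near-empty library. The other 5 guides were at 0 in all libraries.

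Guides with no gene target show how far a guide of given abundance moved. With a living mean of at least 1000 normalised counts, the 127 non-targeting guides had a median change of −0.16 (SD 0.41 over guides) and the 119 safe-targeting guides 0.05 (SD 0.44). All 4 Zfp guides of this class were higher, those of Zfp316 by 1.49, 0.74 and 0.40 and that of Zfp865 by 0.64. A change at least as high was seen for 0 of these 246 control guides beside 45478, which allows a share of up to 1.22%. It was seen for 16 of them beside 45482, 18 beside 197155 and 40 beside 45479. Of other gene guides of this class, 48.2% of 2710 were higher, and the highest stood at 2.35.

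Between 100 and 1000 normalised counts in living cells the control guides spread more, with an SD of 0.95 for 101 non-targeting and 0.87 for 92 safe-targeting guides. Beside guide 85662 of Zfp931, 0 of these 193 changed as far upwards, which allows a share of up to 1.55%. Beside 85660 there were 13 and beside 85665 there were 19. Beside guide 222937 of Zfp846, 6 control guides changed as far downwards, and beside 222933 there were 22. Of the Zfp guides between 100 and 1000 counts, 10 of 13 were higher, beside 40.8% of 2715 other gene guides, whose highest stood at 2.72. Under 100 counts 3 of 6 Zfp guides were higher, 197157 included, beside 39.4% of 1251 other gene guides. In this class the SD over control guides was 1.68 for non-targeting and 1.98 for safe-targeting ones. Here 7 of 110 control guides reached the change of 197152 of Zfp865, and 19 lay as low as 197161. Guide 197157 was not set beside them, since its living values are 0. These are descriptions of single guides, some of which were known to stand out, and carry no test.

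Among guides with an FDR under 0.05 in the authors' deposited table were 12 of the 23 measured Zfp guides (52.2%), 10 of them with a higher and 2 with a lower fold change. In that table the share was 42.0% for non-targeting, 46.0% for safe-targeting and 43.2% for other gene guides. The share with a higher fold change at this FDR in the authors' deposited table was 43.5% for Zfp, 17.1% for non-targeting, 27.0% for safe-targeting and 21.9% for other gene guides. The Zfp shares include guide 197157 of Zfp865, which reached the minimum through the dead libraries alone. Over all measured guides of the authors' deposited table, 22% were higher and 21.3% lower at this FDR. Per gene, the authors' deposited table placed Zfp316 at 9 for gain among dead cells out of 925 entries (p-value 0.0260), Zfp865 at 45 (0.0771), Zfp931 at 56 (0.0519) and Zfp846 at 715 (0.827). The FDR for gain in the authors' deposited table was 1 for each. For loss, the authors' deposited table placed Zfp846 at 204 (p-value 0.115, FDR 0.530). The log2 fold changes in the authors' deposited table were 0.39 for Zfp316, 0.64 for Zfp865, 1.24 for Zfp931 and −0.98 for Zfp846. Each equals the authors' value of 1 guide (45476, 197155, 85660 and 222937 in the same order), unlike the mean over guides used here. For Zfp865 the authors' deposited table counts 7 guides, against 6 measured here. The authors' ranking thus put Zfp316 first of the 3 higher genes, while their log2 fold changes and the mean change both put Zfp931 first.

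Each Zfp gene lay next to another gene with a Zfp name. By gene order in the RefSeq table for GRCm38.p6, Zfp316 lay between Zfp12 and Zfp853, Zfp865 between Zfp524 and Zfp784, Zfp931 next to Zfp971, and Zfp846 next to Zfp266. Of the 10 nearest protein-coding genes in this order, 4 had a Zfp name for Zfp846 and Zfp865 and 2 for Zfp316 and Zfp931. The guide sequences were not used here, so whether a guide also matches one of these neighbours was not tested.

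By name, the library held few other genes of this kind. Other genes with DNA-reading zinc fingers of the same type were picked by their names alone, so those named otherwise were missed. Of those picked, 3 were measured and 0 passed (limma), and on summed counts 2 of them had the opposite sign. The general transcription factor Sp1 stood at 0.62 ± 0.33 with 7 of 8 guides higher, and at −0.0176 on summed counts. Its relative Sp4 stood at 0.23 ± 0.44 with 5 of 7 guides higher, and at 0.30 on summed counts. Zscan26 stood at −0.44 ± 0.19 although 5 of 8 guides were higher, and at 0.45 on summed counts.

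Genes for chromatin silencing with or beside KRAB factors were also taken from a list of names, which may miss others. Of those listed, 2 were measured and 0 passed. Uhrf1, which helps copy DNA methylation, stood at 0.92 ± 0.53 with 3 of 3 guides higher, and at 0.63 on summed counts. The chromatin ATPase Morc3 stood at −0.16 ± 0.47 with 4 of 6 guides higher, and at 0.76 on summed counts. Neither Trim28 nor Setdb1 was among them. Picked by name for zinc fingers of other types, 5 genes were measured: Zc3h12d, Zc3hav1l, Zcchc14, Zfyve21 and Zfyve28. All had values below 0 by the mean of guides (−0.52 to −0.08), as did 68.2% of all genes, and 0 passed. On summed counts Zfyve28 stood at 0.39 and the other 4 were below 0.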

How the data were processed

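Per the submitters' processing notes, the tools included MAGeCK 0.5.9.5. How guides were counted is not stated in the labels. The authors' deposited guide table gives, per the file headers, normalised counts per library, joined in 1 cell per group with no replicate number, beside a signal value per group, a log2 fold change, a p-value and an FDR. The authors' deposited gene table holds places, p-values, FDRs and log2 fold changes. Low values were whole multiples of 1 step in each library (100% within 0.1 read), which gave the depths. Read intervals and floors (3 reads) cover counting error only.

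Guides averaging 10 or more over the 5 libraries were kept, log2(value + 1) was averaged per gene with at least 3 such guides, and dead and living libraries were compared in limma 3.58.1 (R 4.3.3, 2-sided, Benjamini-Hochberg over all genes or guides, threshold 0.05). Such changes understate those of rare guides. The script was tested on simulated data. All 4 Zfp genes are described, by the rule that up to 20 measured Zfp genes all are. The members and lists were chosen with earlier results of these data known. The UV-RIP files were not used here.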

Additional observations from a re-analysis of the deposited data

How the results depend on the processing

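Under all 13 alternatives run, limma called 0 genes in either direction, and 0 Zfp guides wherever guides were tested. The smallest adjusted p over the genes ran from 0.0529 on summed counts to about 1.00 without living library b. The mean change stayed above 0 for Zfp931 (1.02 to 1.79), Zfp865 (0.56 to 1.38) and Zfp316 (0.26 to 0.82) in each of them. That of Zfp846 stayed below 0 (−1.12 to −0.26), except that it turned to 0.0858 on summed counts, which give its most abundant guide more weight. Without dead library a, Zfp316 stood at 0.56. Relative to the median gene, the median of the Zfp genes was 0.87, with the Zfp865 guide that passed through the dead libraries alone included. It was 0.70 with no minimum for rare guides, 0.64 with a pseudocount of 10, 0.47 with the median of guides and 0.67 on summed counts, and 0.67 to 1.06 with single libraries left out. Of all guides in the library, 2 were called. The count was 0 with a minimum mean of 50 or a pseudocount of 10, 41 with no minimum, 13 with both groups weighted alike in the minimum, 9 at equal totals, 11 centred on control guides, and 0 to 12 with single libraries left out. At equal totals the median gene moved from −0.16 to −0.28, and relative to it Zfp931 stayed at 1.42, Zfp865 at 1.22, Zfp316 at 0.53 and Zfp846 at −0.47. The share of Zfp guides higher in dead cells lay between 69.6% and 84.2%, and that at 0 in all libraries between 37.5% and 40% with single libraries left out. With a living library left out, the lone one was assumed to vary like the dead ones. A planned count model on whole reads was not run, and summed counts were added in its place after the data were seen. No paired analysis was possible because the libraries carry no replicate numbers in the table.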
